A study of Mus musculus with 9 samples.

Results

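Heparan sulfate proteoglycans and the enzymes that build and trim their sugar chains were followed in MCEC, a cell line labelled as endothelial cells of the mouse heart. The set was a list of 38 genes, taken by symbol from the 55487 genes of the count table: 4 syndecans, 6 glypicans, 2 secreted basement membrane proteoglycans, 5 enzymes of the linkage region, 5 chain polymerases, 5 genes for N-sulfation and epimerisation, 8 O-sulfotransferases, and 3 genes for extracellular sulfatases and heparanase. Poly-A RNA was sequenced from 3 libraries each of unmodified cells (WT), cells with knockdown of the transcription factor gene Zbtb46 (KD) and cells with enforced overexpression of Zbtb46 (OE). All 3 groups are the same line, and the labels give no method for the knockdown or overexpression and no time point. No library from cells given a control vector was analysed here. The labels do not say whether libraries came from separate cultures, so p-values measure only the spread between these libraries, which may be technical.

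Heparan sulfate is a long sugar chain attached to a core protein, either anchored in the cell membrane (syndecans, glypicans) or laid down in the basement membrane (perlecan, agrin). The chain is started on a linkage sugar, lengthened by exostosins and then modified by N-sulfation, epimerisation and O-sulfation, and the sulfate pattern sets which growth factors and chemokines it binds. Sulf1 and Sulf2 remove 6-O-sulfate groups outside the cell, and heparanase cuts the chain. In endothelium these chains are known for binding vascular endothelial and fibroblast growth factors.

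Counts per library ran from 39491828 to 55745849, and the 38 genes took 0.2726% to 0.3224% of them. Zbtb46 itself was at 13.7 ± 0.623 CPM (counts scaled to a common library total; mean ± SD, n = 3) in WT, and at 11.2 ± 0.537 CPM in KD libraries and 191 ± 2.67 CPM in OE libraries. KD libraries were thus 17.8% below WT (log2 fold change -0.28, SE 0.055, adjusted p = 0.00144; all adjusted p-values are Benjamini-Hochberg values over all genes tested, from the quasi-likelihood test of edgeR), and OE libraries were 3.81 above WT on the log2 scale (SE 0.039). Of 12 endothelial markers, 4 reached 1 CPM in WT (Kdr, Flt1, Tek and Eng). Pecam1 and Cdh5 were at 0.058 and 0.032 CPM, and Erg had 0 counts in every library. Summed endothelial markers ran from 141.8 to 153.9 CPM in WT, 121.0 to 127.8 in KD and 104.8 to 114.5 in OE. Eng made up most of that sum, at 124.5 CPM in WT and 84.9 CPM in OE. Kdr and Tek were also lower in OE (log2 fold changes -0.58 and -1.99, adjusted p = 0.0276 and 3.12e-06). Flt1 was instead higher in OE (17.2 CPM in WT, 21.9 CPM in OE, log2 fold change 0.35, adjusted p = 0.00151). Summed fibroblast and mural markers, 10 genes led by Col1a1 and Col3a1, ran from 8003 to 8882, 7954 to 8075 and 5043 to 5153 CPM. Of these genes, 5 reached 1 CPM in WT, and Col1a2, Lum, Tagln, Des and Rgs5 did not. Col1a1 (5259 CPM in WT) and Col3a1 (3145 CPM) made up most of the sum. Summed epithelial markers, 5 genes led by Krt19, ran from 461 to 563.1, 437 to 459.3 and 461.8 to 482.7 CPM. Krt19 made up nearly all of that sum, at 501.7 CPM in WT. Krt8 was at 2.36 CPM in WT and was lower in OE (log2 fold change -1.09, adjusted p = 0.000331). Epcam, Krt18 and Cdh1 were below 1 CPM in WT. The part of these shifts in the results below was not tested, and in bulk RNA fewer cells of a type and less RNA per cell cannot be told apart.

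Of the 38 genes, 31 had enough counts to be tested, and 7 did not (Gpc2, Gpc5, Xylt1, Ndst4, Hs3st2, Hs3st3a1 and Hs6st3). Sdc3, Gpc6 and Hs3st3b1 passed only through their WT, or WT and KD, libraries, so a lower level elsewhere was partly built into their inclusion. The same holds for the KD level of Sulf2, which passed through its WT and OE libraries. Against WT, 16 of the 31 differed in KD (6 higher, 10 lower), beside 21.3% of all genes tested (11.0% higher, 10.4% lower). In OE, 21 differed from WT (5 higher, 16 lower), beside 36.4% (17.0% higher, 19.5% lower). Between OE and KD 22 differed (7 higher, 15 lower), beside 41.5% (19.4% higher, 22.1% lower); upper-quartile scaling turned this split into 10 higher and 13 lower. Libraries of the compared groups did not overlap for 19, 21 and 26 members in these comparisons, beside 34.7%, 45.1% and 55.4% of all genes tested. The 25 members with a mean of at least 5 CPM gave 13, 17 and 18 calls, where 29.1%, 48.9% and 54.4% of all such genes were called. Median log2 fold changes over the tested members were -0.12, -0.18 and -0.17, and over all genes tested -0.0022, 0.0020 and 0.011. KD and OE were both compared with the same WT libraries, so those counts are not independent. The members were chosen with earlier results of these data known, so no excess over all genes is read from these shares. An adjusted p under 0.05 with a log2 fold change of at least 0.5 in size against WT, in either comparison, was reached by 9 members, beside 16.2% of all genes tested. Tested for a fold change above 1.5, 2, 8 and 7 members passed, beside 1.62%, 4.68% and 7.85% of all genes tested. The KD passes were Sulf2 and Gpc6. The OE passes against WT included Sdc3, Gpc6 and Hs3st3b1, and those against KD included Sulf2 and Hs3st3b1. Low levels of these genes were partly built in, as said above, so these counts are not support for an excess. Small changes cannot pass that test, so calls lost under it are not listed again for single genes.

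Promoter sequences are shown for 3 of the members with large changes, chosen after their values were seen: Sulf2 and Hpse, which fell in KD and rose in OE, and Gpc3, which fell in each. Each is the 250 bases before the RefSeq start on GRCm38.p6, read 5′ to 3′ on the minus strand, and capitals mark matches to the GC box GGGCGG on either strand (CCGCCC on the other). The windows are chr2:166155684-166155933 for Sulf2, chr5:100719717-100719966 for Hpse and chrX:52613975-52614224 for Gpc3.
Sulf2: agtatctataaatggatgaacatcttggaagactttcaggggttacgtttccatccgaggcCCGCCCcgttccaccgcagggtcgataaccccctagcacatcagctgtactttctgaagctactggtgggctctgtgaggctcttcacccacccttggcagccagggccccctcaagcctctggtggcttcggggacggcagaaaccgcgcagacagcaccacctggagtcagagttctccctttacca
Hpse: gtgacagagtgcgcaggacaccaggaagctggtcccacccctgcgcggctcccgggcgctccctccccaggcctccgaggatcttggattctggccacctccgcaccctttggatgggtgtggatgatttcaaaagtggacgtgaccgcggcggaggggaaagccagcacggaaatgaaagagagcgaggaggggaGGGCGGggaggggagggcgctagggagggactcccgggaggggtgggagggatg
Gpc3: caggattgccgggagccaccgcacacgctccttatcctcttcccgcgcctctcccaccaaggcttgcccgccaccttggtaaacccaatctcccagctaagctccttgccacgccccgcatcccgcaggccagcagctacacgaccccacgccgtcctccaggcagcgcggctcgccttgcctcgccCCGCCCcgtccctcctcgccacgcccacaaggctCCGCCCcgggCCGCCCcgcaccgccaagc
Sulf2 and Hpse each held 1 GC box and Gpc3 held 3. GC content was 57.2%, 66.8% and 71.6%, beside a median of 52.4% over all 32851 promoter entries. GC boxes were present in 20 of the 29 members with an entry and in 32.7% of all entries. These shares are not like for like. For each member only the entry nearest its annotated start was used, whereas all entries include alternative starts. A second Sulf2 entry, 378 bases from the annotated start, held 0 GC boxes.

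Among WT levels per kb of exon, the scale on which genes can be compared, the syndecan Sdc4 led with 127 ± 6.37 CPM per kb (SD, n = 3), followed by perlecan (Hspg2, 63.2 ± 8.03) and the 6-O-sulfotransferase Hs6st1 (54.9 ± 3.30). Perlecan and Hs6st1 lay within about their spread of each other. Gpc3 (32.9 ± 1.25) and Sdc2 (27.5 ± 1.04) came next. Sulf2 (0.340 ± 0.0610), Gpc6 (0.107 ± 0.0430) and Sdc3 (0.0689 ± 0.0230) were near the bottom of the tested members.

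**Figure D1:**
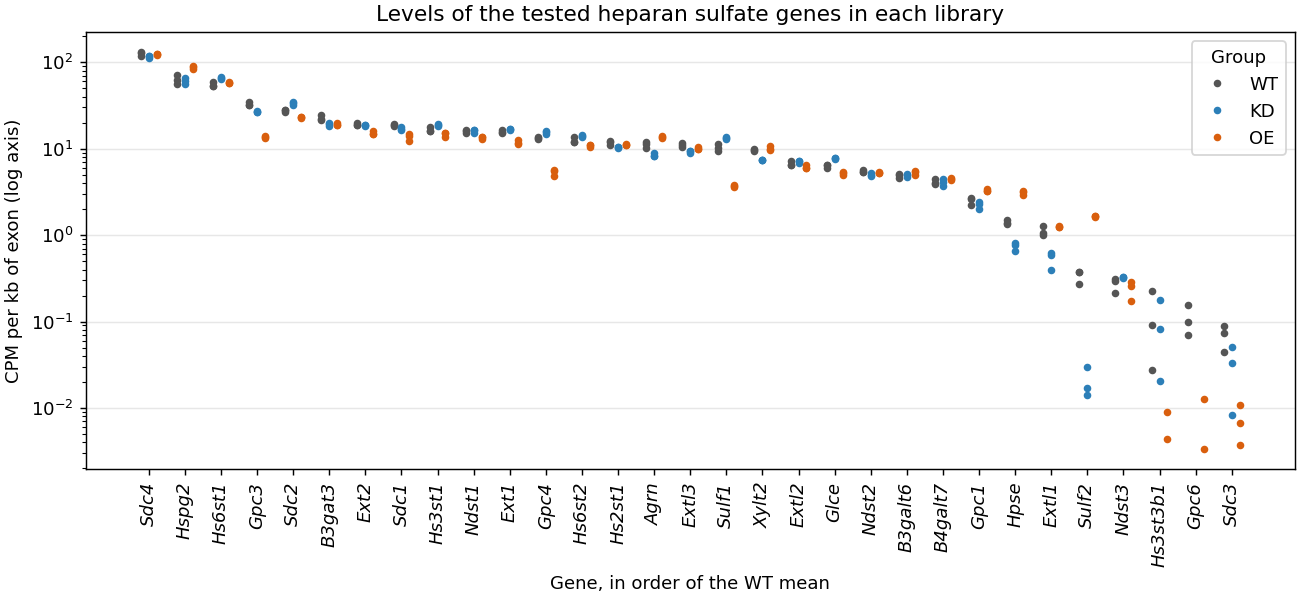
Level of each tested member in the 9 libraries, in CPM per kb of exon on a log axis, with points for libraries; libraries with 0 counts are not drawn. Sdc4 is at the top and Sdc3 at the bottom in WT.

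Among the trimming enzymes, Sulf2 and heparanase fell in KD and rose in OE, and Sulf1 rose in KD and fell in OE. Sulf2 (chromosome 2, 166073089 to 166155663, minus strand) had 60, 130 and 99 counts in WT, 5, 7 and 4 in KD, and 452, 485 and 436 in OE. These were 1.58, 2.18 and 2.22 CPM in WT, 0.0993, 0.176 and 0.0819 in KD, and 9.63, 9.79 and 9.69 in OE. The groups did not overlap in any comparison. Sulf2 fell by 4.09 on the log2 scale in KD (SE 0.29, adjusted p = 9.43e-10) and rose by 2.27 in OE (SE 0.16, adjusted p = 3.38e-10). A low KD level was partly built into its inclusion, as said above. These SEs come from log2 CPM with a prior count of 2, not from the fit, and may be too small at low counts. From the pooled counts, WT exceeded KD 17.7-fold (95% exact interval 10.7 to 31.3, counting error only), and OE exceeded KD 84.3-fold (51.7 to 148). Such intervals, here and below, leave out the spread between libraries. The fitted difference between OE and KD was 6.36 on the log2 scale (adjusted p = 1.44e-14). The gene shares 154 exon bases with Ncoa3 on the opposite strand, so reads could be misassigned there; Ncoa3 was at 62.0, 74.0 and 63.9 CPM in WT, KD and OE.

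Sulf1 (chromosome 1, 12692277 to 12861192, plus strand), the related sulfatase, was at 106, 127 and 116 CPM in WT, 156, 145 and 149 in KD, and 40.8, 42.3 and 42.6 in OE. All KD libraries were above and all OE libraries below the WT libraries. Sulf1 rose by 0.37 in KD (SE 0.079, adjusted p = 4e-05) and fell by 1.47 in OE (SE 0.074, adjusted p = 2.71e-14). OE was -1.84 from KD (SE 0.037, adjusted p = 5.17e-16). Summed per kb, the sulfatase pair stood at 10.6 ± 0.939 CPM per kb in WT, at 13.3 ± 0.504 with knockdown and at 5.36 ± 0.0913 with overexpression (SD, n = 3), without overlap between groups; the sums were not tested. Sulf2 made up 3.18% ± 0.387 of that sum in WT libraries, 0.154% ± 0.069 of it in KD libraries and 30.8% ± 0.379 of it in OE libraries. Sulf1 thus held most of the sum in all 9 libraries, and the OE libraries were the ones with a sizeable Sulf2 share.

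**Figure D2:**
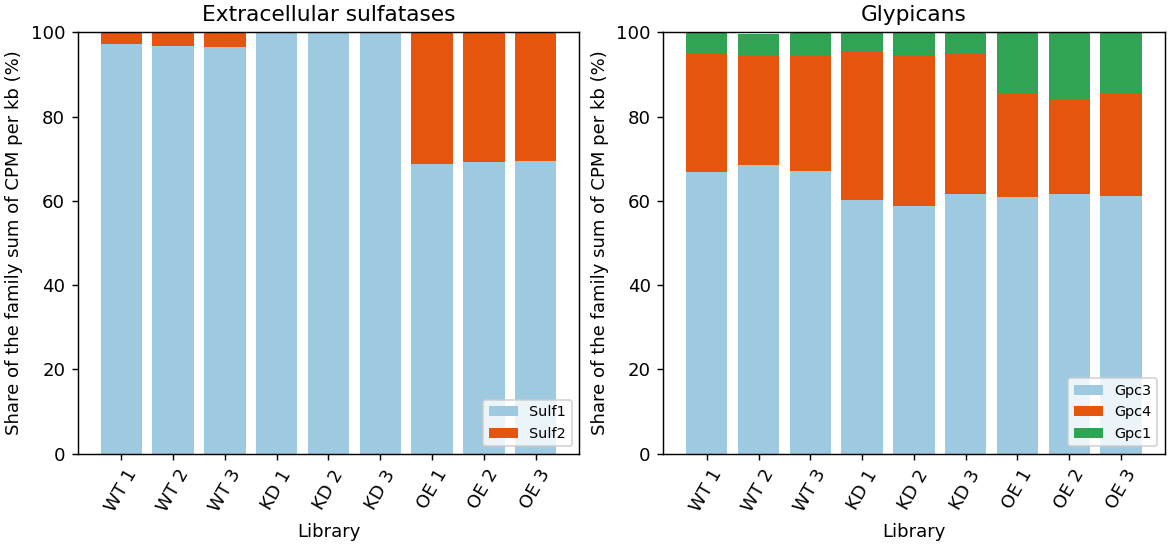
Stacked bars, one per library, of the share in percent of the summed CPM per kb of exon held by Sulf1 and Sulf2 (left) and by Gpc3, Gpc4 and Gpc1 (right; Gpc6 is too low to be drawn). The Sulf2 share averages 3.18% in WT and 30.8% in OE, and the Gpc1 share 5.17% and 14.9%.

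Heparanase (Hpse; chromosome 5, 100679484 to 100719716, minus strand) was at 4.72, 5.31 and 4.90 CPM in WT. KD libraries held 2.84, 2.29 and 2.70, and OE libraries 11.2, 10.4 and 11.3. No groups overlapped. Hpse fell by 0.93 in KD (SE 0.11, adjusted p = 2.25e-05) and rose by 1.14 in OE (SE 0.065, adjusted p = 1.21e-07). OE was 2.06 above KD on the log2 scale (adjusted p = 2.27e-11).

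**Figure D3:**
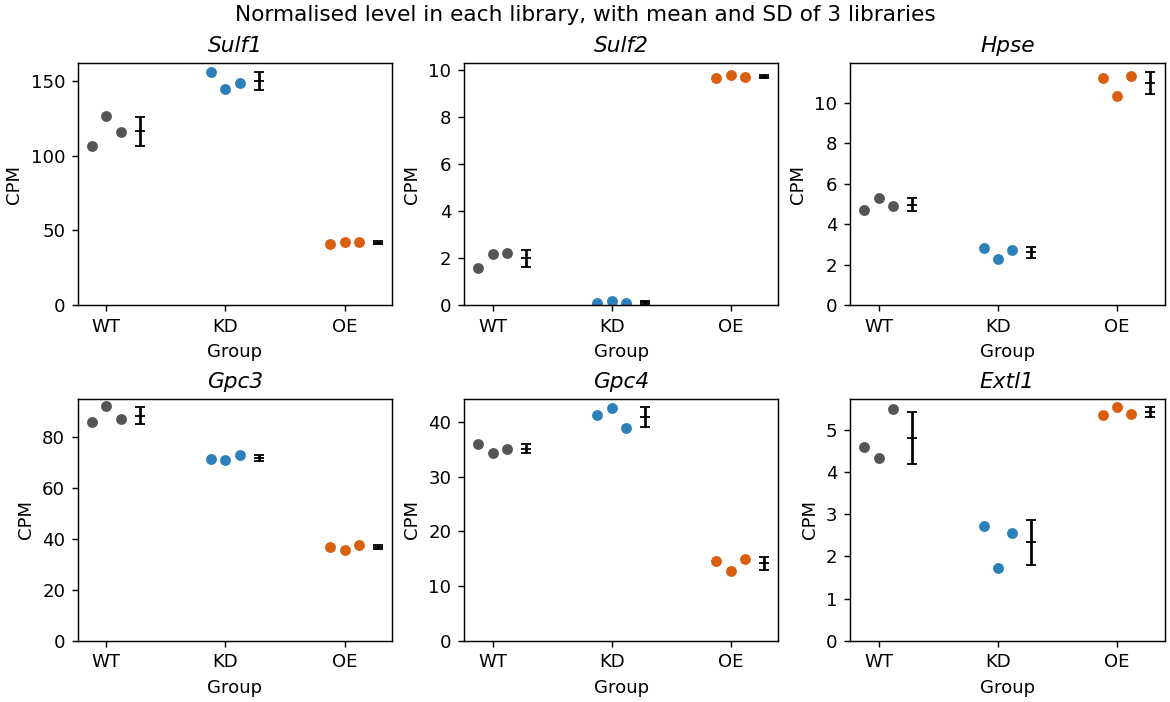
CPM of Sulf1, Sulf2, Hpse, Gpc3, Gpc4 and Extl1 by group, with 1 point per library and bars for the mean and SD of 3 libraries. The OE points of Sulf2 (9.63 to 9.79) lie above all WT points (1.58 to 2.22), and those of Sulf1 (40.8 to 42.6) below all WT points (106 to 127).

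Among the glypicans, membrane-linked core proteins with a lipid anchor, 4 were tested. In KD 1 rose and 2 fell, beside 11.0% and 10.4% of all genes tested. In OE 1 rose and 3 fell, beside 17.0% and 19.5%. Gpc3 (chromosome X, 52272426 to 52613950) was at 85.9, 92.3 and 87.2 CPM in WT, 71.3, 71.2 and 73.1 in KD, and 36.9, 35.8 and 37.5 in OE. Each group lay below the one before it without overlap. The fall was 0.30 in KD (SE 0.034, adjusted p = 8.34e-05) and 1.27 in OE (SE 0.037, adjusted p = 2.76e-14). Gpc4, which lies 107.2 kb away with 0 coding genes between (chromosome X, 52053021 to 52165252), was at 36.0, 34.4 and 35.1 CPM in WT, 41.2, 42.6 and 38.9 in KD, and 14.7, 12.8 and 14.9 in OE. KD was higher than WT and OE lower, without overlap. The OE fall was 1.31 (SE 0.071, adjusted p = 3.63e-12). The KD rise of 0.22 (SE 0.043, adjusted p = 0.0172) lost its call without KD replicate 1 (adjusted p = 0.0615), without KD replicate 2 (0.104) and with library totals alone (0.117).

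Gpc6 (chromosome 14, 116925315 to 117976544) had 24, 59 and 20 counts in WT, 0 in each KD library and 1, 4 and 0 in OE. KD was at least 10.5-fold lower than WT, taking 3 counts per library as the floor (adjusted p = 4.81e-05). Low KD and OE levels were partly built into the inclusion of Gpc6, as said above. WT exceeded OE 20.5-fold in pooled counts (8.51 to 64.5; adjusted p = 0.000157). The OE library with 4 of the 5 counts weighed on this: the fitted log2 fold change was -4.21 with it and -5.69 without OE replicate 2. Gpc1 was the glypican that rose in OE, from 11.6, 14.0 and 13.4 CPM to 16.7, 17.7 and 16.9, by 0.39 (SE 0.088, adjusted p = 0.00166). The glypican sum was 48.8 ± 1.20 CPM per kb in WT, then 44.4 ± 0.480 with knockdown and 22.3 ± 0.626 with overexpression, each below WT without overlap. Within it the Gpc1 share was 5.17% in WT libraries, 5.01% in KD libraries and 14.9% in OE libraries. Gpc2 had 1 count in 1 KD library, and Gpc5, which neighbours Gpc6 at a distance of 400.1 kb, had 1 count in 1 WT library. Gpc1 shares 977 exon bases with Ankmy1 on the opposite strand and Gpc2 shares 2376 with Gm43720 on the same strand, so some of their counts could belong to those genes.

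Among the syndecans, transmembrane core proteins, 1 of 4 rose in KD and 3 fell in OE. Of all genes tested, 11.0% rose in KD and 19.5% fell in OE. Sdc4 was at 334, 331 and 305 CPM in WT, 285, 305 and 305 in KD, and 315, 312 and 315 in OE. No comparison passed the test, but the KD difference did without WT replicate 3 (adjusted p = 0.00289), with upper-quartile scaling (0.0175) and with at least 10 counts required in every library (0.0441). The difference between OE and KD passed with upper-quartile scaling (adjusted p = 0.0123) and in a fit of those groups alone (0.0382). Sdc2 was at 98.3, 99.7 and 92.8 CPM in WT, 114, 120 and 122 in KD, and 81.9, 79.2 and 82.3 in OE. It rose by 0.29 in KD (SE 0.044, adjusted p = 9.02e-05) and fell by 0.26 in OE (SE 0.036, adjusted p = 0.000135), without overlap between groups. Sdc1 was at 71.8, 69.5 and 73.1 CPM in WT, 62.2, 63.6 and 67.6 in KD, and 47.2, 52.9 and 56.1 in OE. It fell by 0.46 in OE (SE 0.076, adjusted p = 2.53e-06), and the KD value of -0.15 did not pass (adjusted p = 0.0759), although it did with upper-quartile scaling (0.0316) and without WT replicate 2 (0.0389). The syndecan sum, dominated by Sdc4, was 173 ± 7.01 CPM per kb in WT, 168 ± 6.21 with knockdown and 159.9 ± 1.45 with overexpression.

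Sdc3 had 10, 26 and 24 counts in WT, 10, 2 and 15 in KD, and 3, 2 and 1 in OE. WT and OE did not overlap, while KD overlapped both. WT exceeded OE 9.95-fold in pooled counts (4.31 to 28.2), with an adjusted p of 0.00123. A low OE level was partly built into the inclusion of Sdc3, as said above. The difference between OE and KD (adjusted p = 0.0349) lost its call with the replicate block (0.0546), with limma-voom (0.0875) and without KD replicate 1 (0.0820), KD replicate 3 (0.204) or OE replicate 1 (0.0516), 2 (0.0953) or 3 (0.118).

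The basement membrane proteoglycans, Hspg2 (perlecan) and Agrn, both rose in OE. Hspg2 was at 792, 899 and 1022 CPM in WT, 936, 876 and 795 in KD, and 1270, 1205 and 1314 in OE. Every OE library lay above the others. The OE rise was 0.48 (SE 0.11, adjusted p = 0.00203). Agrn was at 95.7, 105 and 110 CPM in WT, 82.3, 76.8 and 75.8 in KD, and 132, 126 and 124 in OE. It fell by 0.40 in KD (SE 0.069, adjusted p = 1.01e-05) and rose by 0.30 in OE (SE 0.064, adjusted p = 9.95e-05). Both genes lie on chromosome 4, where the median log2 fold change of the other tested genes within 10 Mb was 0.31 around Hspg2 and 0.33 around Agrn in OE against WT. Corrected for this median, the values were 0.17 (adjusted p = 0.185) and -0.027 (adjusted p = 0.744), which ended both calls and turned the sign for Agrn. The KD fall of Agrn was -0.25 after the correction (adjusted p = 0.00158). The 5 members on this chromosome are Hspg2, Agrn, Extl1, B3galt6 and Sdc3.

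**Figure D4:**
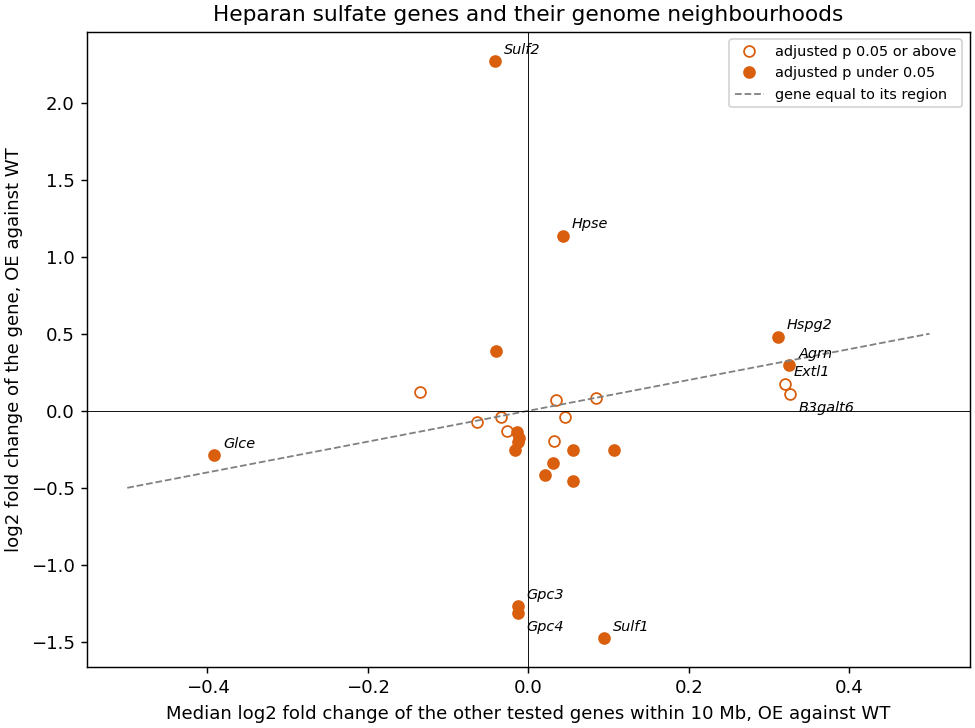
Log2 fold change in OE against WT of 28 members (y axis) against the median of the other tested genes within 10 Mb (x axis); 3 members of low count are left out, filled points passed an adjusted p of 0.05 and the dashed line marks equality. Agrn lies on the line, Glce near it, and Sulf1, Sulf2, Hpse, Gpc3 and Gpc4 far from it.

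Tested genes for the linkage region and chain synthesis had log2 fold changes under 0.5 in size against WT, apart from Extl1. Of 4 linkage genes tested, 2 fell in KD and 1 in OE, beside 10.4% and 19.5% of all genes tested. Xylt2, which starts the chain, was at 38.9, 37.3 and 39.4 CPM in WT and 29.6, 29.7 and 29.6 in KD, a fall of 0.38 (SE 0.024, adjusted p = 7.2e-05), and was at 38.7, 43.3 and 39.5 in OE. B3gat3, which adds the last linkage sugar, fell by 0.25 in KD (SE 0.072, adjusted p = 0.00379) and by 0.25 in OE (SE 0.066, adjusted p = 0.00178). B4galt7 (10.7 to 13.4 CPM over all libraries) and B3galt6 (14.6 to 17.4 CPM), which add the middle linkage sugars, passed no comparison. For B3galt6, whose neighbours had a median of 0.33 in OE, the corrected value was -0.22 (adjusted p = 0.0377). For B4galt7 the corrected value in OE was 0.26 (adjusted p = 0.0311), and between OE and KD it was 0.33 (adjusted p = 0.00626).

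The exostosins Ext1 and Ext2 form the polymerase complex. Ext1 was at 126, 133 and 122 CPM in WT and 93.7, 90.8 and 101 in OE, and fell by 0.42 (SE 0.059, adjusted p = 5.63e-07). Ext2 fell by 0.34 in OE (SE 0.042, adjusted p = 2.21e-06). Extl1 (chromosome 4, 134356372 to 134383850) was at 4.59, 4.34 and 5.50 CPM in WT, 2.72, 1.73 and 2.56 in KD, and 5.35, 5.55 and 5.38 in OE. KD lay below both other groups. The KD fall was 1.03 (SE 0.22, adjusted p = 0.000115), and the OE value of 0.18 did not pass (adjusted p = 0.416). Corrected for its region, Extl1 was at -0.85 in KD (adjusted p = 0.000888). Extl3, a starter of the chain, fell by 0.27 in KD (SE 0.056, adjusted p = 0.000879), while its OE call at -0.14 (adjusted p = 0.0477) was lost in 12 of the 19 other refits, with adjusted p up to 0.176 (without OE replicate 2). Extl2 ran from 20.5 to 24.6 CPM over all libraries and passed no comparison with WT. Its difference between OE and KD, -0.19 (adjusted p = 0.0250), was lost without KD replicate 1 or 2 or OE replicate 1 or 3 (adjusted p from 0.0709 to 0.0997), with upper-quartile scaling (0.118) and with the regional correction (0.0644).

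Tested genes for N-sulfation, epimerisation and O-sulfation had log2 fold changes under 0.5 in size against WT, apart from Hs3st3b1. Ndst1, a main N-sulfation enzyme, fell by 0.25 in OE (SE 0.037, adjusted p = 0.000132), and Glce, the epimerase, rose by 0.29 in KD (SE 0.038, adjusted p = 0.000404) and fell by 0.29 in OE (SE 0.045, adjusted p = 0.000263). Glce was at 44.5, 44.0 and 41.3 CPM in WT, 51.7, 54.0 and 53.5 in KD, and 35.8, 34.1 and 36.6 in OE. Its neighbours on chromosome 9 had a median of -0.39 in OE, and corrected for this the Glce value was 0.10 (adjusted p = 0.155), which ended the OE call and turned its sign. Ndst2 (24.7 ± 0.750 CPM in WT; SD, n = 3) and Ndst3 (2.69 ± 0.510), the other N-sulfation enzymes tested, passed no comparison. Between OE and KD, Ndst3 passed without OE replicate 2 (adjusted p = 0.0491) and in a fit of those groups alone (0.0376).

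Of 5 O-sulfotransferases tested, 2 rose and 1 fell in KD, beside 11.0% and 10.4% of all genes tested. In OE 3 fell, beside 19.5%. Several of these calls were lost in refits, as given below. Hs6st1, which adds 6-O-sulfate, was at 295, 292 and 325 CPM in WT and 361, 375 and 352 in KD, and rose by 0.25 (SE 0.056, adjusted p = 0.00024). In OE it was at 322, 322 and 324 CPM and passed against WT only without WT replicate 3 (adjusted p = 0.00557) and with upper-quartile scaling (0.0487). Its relative Hs6st2 fell by 0.20 in OE (SE 0.074, adjusted p = 0.0054), and rose by 0.17 in KD (adjusted p = 0.0309), a call lost without WT replicate 1 (0.115) or 3 (0.0918), or KD replicate 2 (0.153) or 3 (0.101), with upper-quartile scaling (0.0544), with library totals alone (0.286) and in a fit of those groups alone (0.0656). Hs2st1, the single 2-O-sulfotransferase, fell by 0.16 in KD (SE 0.046, adjusted p = 0.0163), and leaving out any 1 KD library ended the call (adjusted p from 0.0545 to 0.0686). With the regional correction the Hs2st1 value in KD was -0.27 (adjusted p = 0.000232). Its OE difference from WT passed without WT replicate 3 alone (adjusted p = 0.0301). Between OE and KD, Hs2st1 did not pass (adjusted p = 0.129). It did with the regional correction (0.000104), with upper-quartile scaling (0.00827) and in a fit of those groups alone (0.0397). Hs3st1, whose mean share of the 3-O-sulfotransferase sum per kb was 99.2% in WT and 99.1% in KD, fell by 0.18 in OE (SE 0.070, adjusted p = 0.0307), a call lost without WT replicate 3 (0.106) or OE replicate 1 (0.172), with upper-quartile scaling (0.0787) and in a fit of those groups alone (0.0523). Its KD difference (adjusted p = 0.0557) passed without WT replicate 3 (0.0103), with the replicate block (0.0448) and with the regional correction (0.0499).

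The remaining O-sulfotransferases and the untested enzymes had few counts. Hs3st3b1, a 3-O-sulfotransferase (chromosome 11, 63885792 to 63922290), had 42, 27 and 6 counts in WT, 20, 4 and 42 in KD, and 1, 0 and 2 in OE. WT exceeded OE 24.9-fold in pooled counts (8.19 to 123, counting error only), with an adjusted p of 0.00368. A low OE level was partly built into the inclusion of Hs3st3b1, as said above. KD and WT overlapped (adjusted p = 0.851). The fitted log2 fold change of OE against WT was -4.54, and became -3.67 without WT replicate 1 (adjusted p = 0.0116) and -5.41 without OE replicate 3 (adjusted p = 0.0127). Among untested members, Hs3st2 had 10, 12 and 10 counts in KD and 0 in all WT and OE libraries, so KD was at least 3.59-fold higher than WT. Hs3st3a1 had 4, 8 and 0 counts in WT, 2, 0 and 0 in KD and 1, 0 and 0 in OE, and Hs6st3 had 2 counts in 1 WT library. Hs3st3a1 shares 1295 exon bases with F930015N05Rik on the opposite strand. Ndst4 had 0, 8 and 2 counts in WT, 1, 0 and 0 in KD and 8, 17 and 17 in OE; OE exceeded WT 4.22-fold (2.08 to 9.43). Xylt1 had 0 counts in every library, and 3 counts there equal 0.0504 to 0.0791 CPM.

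**Figure D5:**
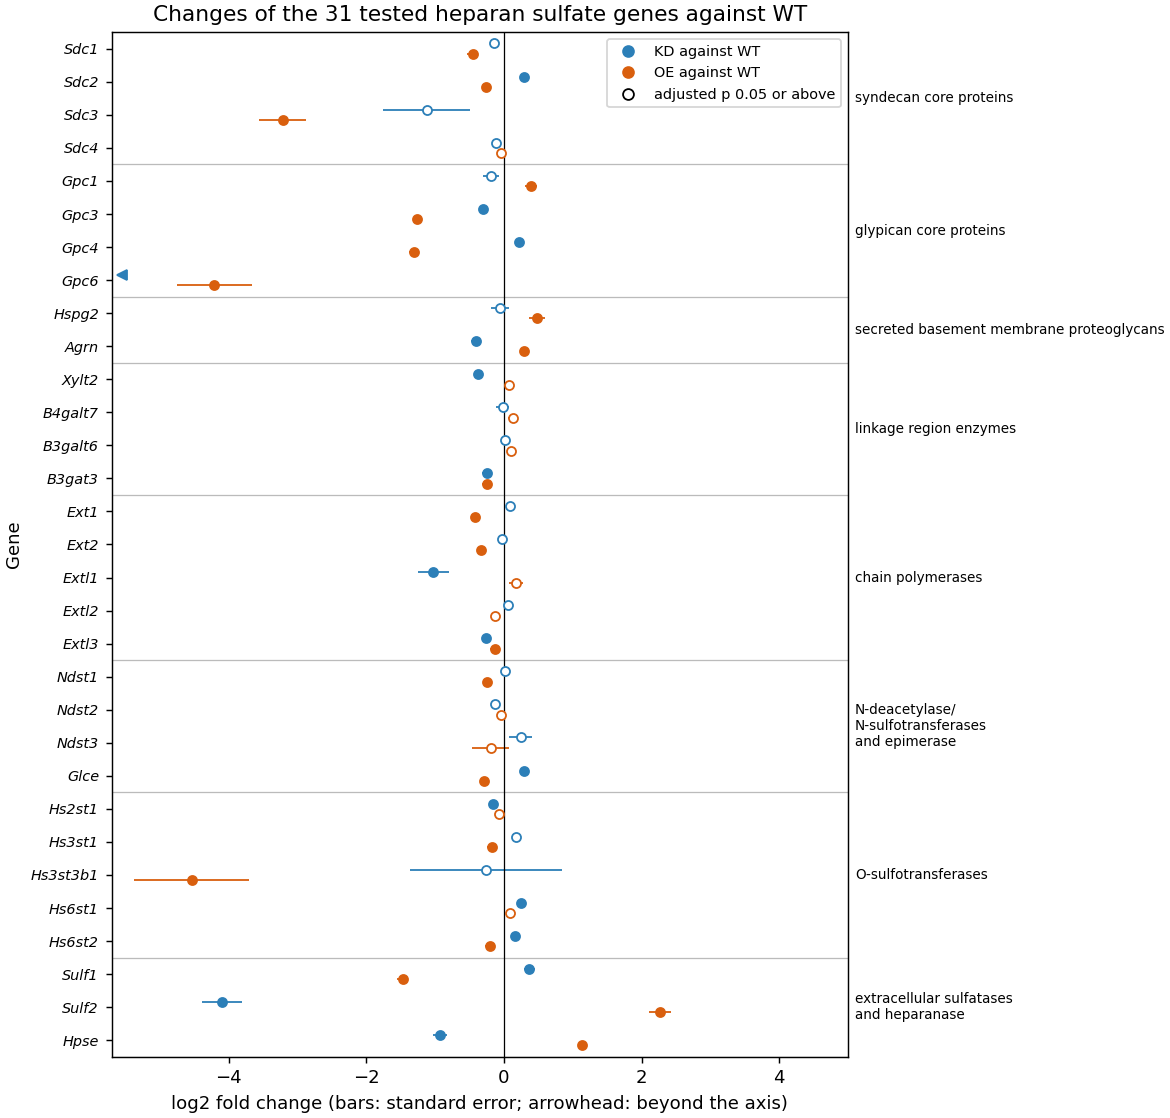
Log2 fold change of each of the 31 tested members in KD and OE against WT. Bars give the standard error from log2 CPM with a prior count of 2, not from the fit, and may be too short at low counts. Filled points passed an adjusted p of 0.05. Sulf2 lies at -4.09 in KD and 2.27 in OE, and Gpc6 in KD is beyond the axis (arrowhead).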

How the data were processed

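Poly-A RNA-seq libraries from 9 samples were analysed. Values are whole-number counts per Ensembl gene, deposited by the authors without normalisation, judged from the table itself. The genome build was GRCm38 (mm10), per the submitters' processing notes. The aligner, counting program, use of strand and annotation release are not given in the sources used here. The table has 55774 rows; 168 genes on 455 rows with identical counts were counted once, leaving 55487 genes. Totals were 39491828 to 55745849 counts per library.

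Genes passing filterByExpr (16955) were scaled with TMM and fitted with edgeR 4.0.16 (quasi-likelihood, robust, group as the only term, R 4.3.3), with Benjamini-Hochberg adjustment over all genes tested and a threshold of 0.05. Log2 fold changes come from the edgeR fit. Their standard errors come instead from log2 CPM with a prior count of 2, which narrows differences and spread at low counts. For members with few counts they may therefore be too small for the fitted value. CPM here is computed from the deposited counts with TMM factors, and CPM per kb divides it by the exon length in GENCODE M21. Counts at 0 in every library of a group were set to 3 counts for fold bounds. Regional medians are those of the other tested genes within 10 Mb on each side. The procedure was tested on simulated data. Alternatives were other scalings (DESeq2 size factors, upper quartile, library totals), other filters, DESeq2 1.42.0, limma-voom (limma 3.58.1), each library left out, a replicate block, separate fits per pair of groups, testing for a fold change above 1.5, and regional correction; the refit with a regional offset was chosen after seeing the data.

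Members and lists were chosen with earlier results of these data known. Members with an adjusted p under 0.05 and a log2 fold change of at least 0.5 in size against WT are given in full, others by counts, ranges and examples; related genes are named from a log2 fold change of 1 in size. Promoter windows are the 250 bases before each start in RefSeq on GRCm38.p6.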

Additional observations from a re-analysis of the deposited data

How the results depend on the processing

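At an adjusted p under 0.05, 16 members differed between KD and WT, 21 between OE and WT and 22 between OE and KD. Testing for a fold change above 1.5 left 2, 8 and 7 of them, fewer by construction because small changes cannot pass it. With one library left out the counts ran from 13 to 17, from 20 to 22 and from 20 to 24. In every setting run, 0 members called in the main analysis were called with the opposite sign. The replicate block gave 17, 20 and 21, and only Sdc3 between OE and KD, Extl3 in OE and Hs3st1 in KD crossed the threshold under it. Same-numbered libraries of different groups did not deviate together (correlations of -0.042 to 0.049, beside -0.061 to 0.042 for other numbers), so the numbers were not taken as pairs. The refit with a regional offset gave 17, 19 and 22. The last of these was not the same set as in the main analysis. Between OE and KD, the offset ended the calls of Hspg2 (0.053, adjusted p = 0.693), Glce (-0.079, adjusted p = 0.277) and Extl2. Hs2st1 (0.27, adjusted p = 0.000104), B4galt7 and B3galt6 passed in their place.

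Called values changed sign in 2 cases. With the regional offset, Agrn in OE against WT became -0.027 and Glce in OE against WT became 0.10, on the log2 scale; the subtraction alone gave the same -0.027 and 0.10. The remaining sign changes concerned values that did not pass the threshold in the main analysis. With the regional offset B3galt6 became -0.22 (OE against WT) and -0.39 (OE against KD), now past the threshold (adjusted p of 0.0377 and 0.000461, edgeR), Hspg2 0.12, Ext2 0.0073 and Ndst1 -0.0078 in KD against WT, Extl1 -0.14 and Hs6st1 -0.0011 in OE against WT. Upper-quartile factors gave B3galt6 -0.017 and Ndst1 -0.0096 in KD against WT and B3gat3 0.060 in OE against KD; library totals gave B3galt6 -0.024 and Ndst1 -0.018. With one library left out, values of changing sign ran, in KD against WT, from -0.14 to 0.041 for Hspg2, -0.079 to 0.050 for B4galt7, -0.037 to 0.048 for B3galt6, -0.013 to 0.051 for Ndst1 and -1.11 to 0.60 for Hs3st3b1, and for B3gat3 between OE and KD from -0.043 to 0.024. The cause of these sign changes was not tested, and the regional settings only remove the median of neighbouring genes. Depth limits the members under 1 CPM: a library's 3 counts equal 0.0504 to 0.0791 CPM.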

Other observations

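Of 70 related genes for sulfate and sugar supply, lysosomal breakdown, chondroitin and dermatan sulfate, hyaluronan, and linkage-region kinases and other heparan sulfate enzymes and carriers, 55 were tested; 9 were higher and 6 lower in KD, and 5 higher and 25 lower in OE than in WT, where 21.3% and 36.4% of all genes tested were called. Median log2 fold changes were 0.065 and -0.15. The related lists were also chosen with earlier results of these data known, so no excess over all genes is read from them. Of 9 lysosomal genes for heparan sulfate breakdown, 5 fell in OE, among them Idua, an iduronidase, from 3.34 to 1.54 CPM (log2 fold change -1.11, adjusted p = 3.6e-05, edgeR). Of 13 chondroitin and dermatan sulfate synthesis genes tested, 8 fell in OE and 1 rose. Csgalnact1, which starts the chondroitin chain, went from 8.34 to 2.31 CPM (log2 fold change -1.86, adjusted p = 3.31e-09), and Chst15, a chondroitin sulfotransferase, rose from 2.27 to 6.47 CPM (1.51, adjusted p = 3.94e-06).

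Decorin (Dcn), a small dermatan sulfate proteoglycan, fell in OE from 98.0 ± 6.37 to 36.7 ± 0.738 CPM (SD, n = 3; log2 fold change -1.42, adjusted p = 1.76e-14, edgeR). Dsel, a dermatan sulfate epimerase, fell in OE from 3.81 to 1.22 CPM (-1.65, adjusted p = 2.9e-06). Cemip, a hyaluronan-degrading protein, fell from 119 to 13.7 CPM (-3.12, adjusted p = 1.28e-19). Has1, a hyaluronan synthase, rose in OE from 0.615 to 1.31 CPM (1.04, adjusted p = 0.0214), and Hyal1, a hyaluronidase, fell in KD from 1.10 to 0.444 CPM (-1.31, adjusted p = 0.00189). Hyal1 also rose in OE, to 1.88 CPM (0.76, adjusted p = 0.0201, edgeR). Col18a1, a collagen that carries heparan sulfate, was at 28.6 ± 1.37 CPM in WT libraries, 12.5 ± 0.807 CPM in KD libraries and 47.4 ± 1.55 CPM in OE libraries (SD, n = 3). It fell by 1.20 in KD (adjusted p = 6.11e-11, edgeR) and rose by 0.72 in OE (adjusted p = 1.04e-08).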
